A study of Zea mays with 32 samples.

Results

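Mushito and Palomero, a pair of the 8 native maize (Zea mays) landraces in this study, were set against the other 6, namely Tabloncillo, Reventador, Zapalote, Gordo, Nal-tel and Jala. The pair was chosen by landrace name and held 8 of the 32 libraries, with 4 from each landrace, and the other 6 landraces held 24. Every library came from a leaf primordium at plastochron stage 4 (a leaf's age in plastochrons, the intervals between the start of one leaf and the next) of a plant grown at 35 °C, which the labels name as heat. Each landrace gave 2 libraries of the fifth leaf (the stage labelled V5) and 2 of the ninth leaf (V9), so all 16 combinations of landrace and leaf, and all 32 libraries, shared the temperature. The series' title places the data in work on leaf vein density and photosynthesis in maize.

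Landraces are varieties that farmers select and resow locally, and their plants differ genetically among themselves. Maize of the central Mexican highlands, among which the races Palomero and Mushito are usually counted, grows in cool air and is known for dark, hairy leaf sheaths, for gene flow from highland teosinte and for a large chromosomal inversion shared with that wild relative. Genes inside an inversion are inherited together, because recombination between the inverted and the standard order is suppressed. The labels give no place of origin or elevation for any landrace, so the highland grouping could not be checked against them.

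The files hold gene identifiers without names. None of the 39756 identifiers matched the gene table used here (0 matches against 49888 genes), so genes are given by identifier, without function, sequence or position, and the labelled cell type, leaf primordium, could not be checked against its markers. Recovered reads summed to between 54.8 and 75.2 M in the libraries of the pair and to between 54.9 and 121.0 M in the other 24, with 28975 to 30585 and 28447 to 29945 genes above 0. Of the reads in each library, 2.14% to 3.22% fell on its 10 most abundant genes. The labels do not say whether the libraries of a landrace came from separate plants or pools. They number the libraries in a separate series for each leaf, so leaf and library series cannot be told apart. Landrace means were therefore taken as the units, 2 against 6, with the leaves weighted equally. In bulk tissue, fewer cells of a type and less RNA per cell cannot be told apart.

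Mushito and Palomero had the most similar expression of any of the 28 pairs of landraces. Over the 26156 tested genes the root mean square distance between their means was 0.756 log2 units. The 12 distances between a landrace of the pair and one of the other 6 ran from 0.955 to 1.254, with a median of 1.055. The 15 distances among the other 6 ran from 0.888 to 1.168, with a median of 1.032. The pair therefore stood about as far from the other landraces as those stood from each other, and the closest distance after that of the pair was the 0.888 between Tabloncillo and Zapalote. No test was made of these distances.

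Mushito and Palomero were the closest pair in each leaf as well. In the fifth leaf they lay 0.876 apart, against 1.071 to 1.301 between the pair and the other 6 and 1.041 to 1.236 among the other 6. In the ninth leaf they lay 0.896 apart, against 1.051 to 1.408 between the pair and the other 6 and 0.998 to 1.330 among the other 6. From the mean of the pair over both leaves, Tabloncillo was the nearest of the other landraces at 0.920 and Reventador the farthest at 1.157. Single replicate libraries of the same landrace and leaf were 0.797 to 1.152 apart. That range is between single libraries and the distances above are between means of libraries, so they cannot be compared directly. Mushito and Palomero also differed from each other: their means were at least 2-fold apart in 2694 genes, 10.3% of those tested.

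**Figure D1:**
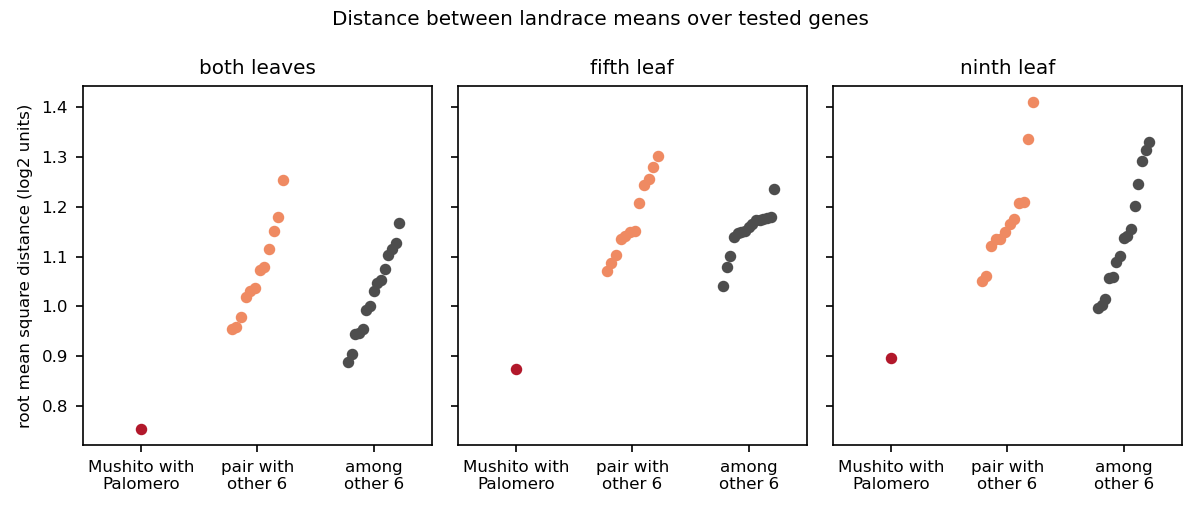
Root mean square distance (log2 units, over 26156 tested genes) between landrace means over both leaves and in each leaf. Each point is 1 pair of landraces; the single distance between Mushito and Palomero lies below the 12 distances of the pair to the other 6 and below the 15 among the other 6 in all 3 panels.

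To find genes that set the pair apart, log2(normalized count + 1) was compared between the 2 and the 6 landrace means with limma. In Mushito and Palomero 71 genes differed at a Benjamini-Hochberg adjusted p under 0.05, which is 0.271% of those tested. Of these, 36 were higher in the pair (0.138%) and 35 were lower (0.134%). At an unadjusted p under 0.05 there were 2048 genes (7.83%). The median absolute log2 difference was 4.66 among the rises and 3.93 among the falls, against 0.154 over all tested genes. A threshold on p with so few units favours large differences, so this contrast follows in part from the selection. At least a 2-fold change was seen in 34 of the 36 rises and 30 of the 35 falls, and at least a 16-fold change in 20 and 17.

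Single libraries were compared as well. In 21 of the 36 rises all 8 libraries of the pair lay above all 24 others, and in 21 of the 35 falls they all lay below. Over all tested genes, 58 showed the first pattern (0.222%) and 29 the second (0.111%), so 42 of the 87 genes with separate libraries (0.333%) were also called. Separation of the 2 landrace means from the other 6 was common, at 2823 genes (10.8%, with 5.98% above and 4.82% below), and held for each of the 71.

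The split by direction moved with the pseudocount and with the filter on low values. Rises made up 50.7% of the calls, but 30.8% with a pseudocount of 0.1, 72.2% with 10, 71.1% with no filter on low genes and 23.5% among genes with a mean of at least 50. With 1 landrace of the pair left out, a single landrace stands against 6 and is assumed to vary like them, here and wherever a value without Mushito or Palomero is given. Without Palomero 8 genes were called, all lower, without Mushito 26, without Zapalote 38 and without Jala 39, while leaving out any 1 library kept the count within 1.5 times.

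Zm00001eb004080 showed the largest rise. Its normalized count was 618.7 at the lowest, 2662 at the median and 5588 at the highest in the 8 libraries of the pair, against 0, 3.198 and 133.1 in the other 24. The groups did not overlap, and only 1 of the other libraries, the fifth leaf replicate 1 of Reventador, exceeded 100. Across libraries the means were 2735 ± 1858 in the pair (SD, n = 8) and 11.34 ± 27.55 in the other 6 landraces (SD, n = 24). The units of the test were landraces, not these libraries. The log2 difference was 8.79 (SE 0.77, limma adjusted p = 0.00345). Palomero stood above Mushito in each leaf, with 3640 and 5588 against 1685 and 1587 in the fifth and 4489 and 3639 against 633.2 and 618.7 in the ninth. Without Palomero the adjusted p was 0.0723.

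Zm00001eb393410 was at a steadier level within the pair. It had 402.0, 539.4 and 849.8 normalized counts at the lowest, median and highest in the pair, against 0, 6.524 and 137.6 in the others. The log2 difference was 5.94 (SE 0.76, limma adjusted p = 0.02). The highest of the others, 137.6 in 1 Zapalote library of the fifth leaf, stood beside 9.723 in its replicate. The call was lost in 6 of 52 alternatives, with edgeR (adjusted p = 0.0626) and without Mushito (0.188) or Palomero (0.232) among them.

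Zm00001eb282490 showed the largest fall. It had 0, 2.408 and 13.23 normalized counts at the lowest, median and highest in the pair, against 143.6, 401.5 and 781.3 in the other 24 libraries. Each library of the other 6 landraces held more than 10 times the highest value of the pair. The log2 difference was -7.02 (SE 0.52, limma adjusted p = 0.00126). The gene met the filter on low values through the other 6 landraces, so the filter was not independent of this difference. Mushito held 3.781 and 0 in the fifth leaf and 0 in both libraries of the ninth, while Palomero held between 2.361 and 13.23.

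Zm00001eb059890 was near 0 in 7 of the 8 libraries of the pair. Its normalized count was 0, 0.9453 and 19.84 at the lowest, median and highest in the pair, against 81.51, 285.9 and 563.9 in the others. The 19.84 came from 1 Palomero library of the fifth leaf, and its replicate was at 0. The log2 difference was -6.91 (SE 0.37, limma adjusted p = 0.000295). These fits are on the log2(count + 1) scale, so the size of a change of a gene near 0 depends on the pseudocount: it was -8.76 with a pseudocount of 0.1 and -4.50 with 10 here, and -8.46 and -4.89 for Zm00001eb282490. Both genes stayed under the threshold in all 52 alternatives. Zm00001eb059890 likewise met the filter on low values through the other landraces, so its p is not independent of the filter.

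**Figure D2:**
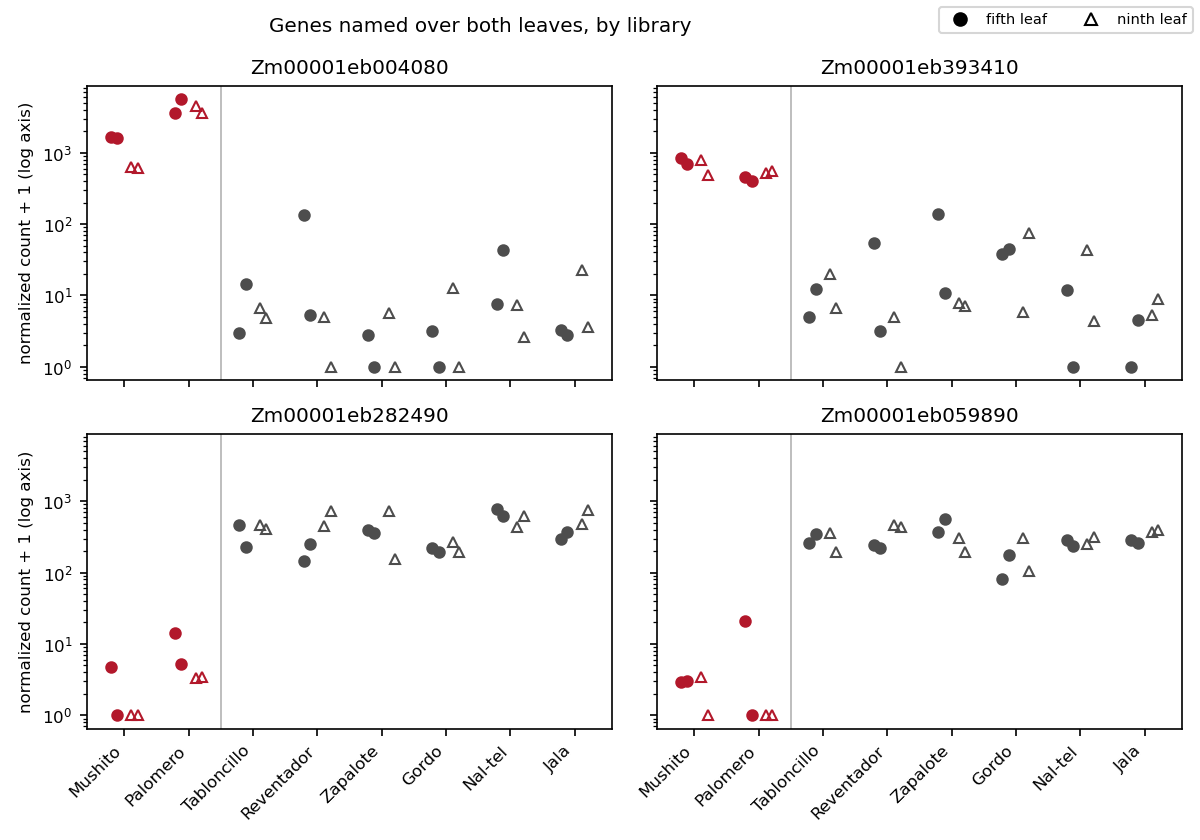
Normalized count + 1 (log axis) of 4 genes in every library, by landrace, with filled circles for the fifth and open triangles for the ninth leaf. Mushito and Palomero (red) lie above all 24 other libraries in the upper panels, at 402.0 or more against at most 137.6. In the lower panels they lie below the other 24, at 19.84 or less against 81.51 or more. The choice of genes fixes this separation.

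The 71 genes were not all of this near-absent kind. In 14 of the 35 falls both landraces of the pair had a mean under 10 (geometric, as normalized counts), and in 13 of the 36 rises all 6 other landraces did. Genes this low on the lower side met the filter on low values mainly through the higher group, so the filter was not independent of their difference. With the filter at a mean of at least 50, 8 rises and 26 falls were called. In 11 falls and 5 rises the lower side was still at 100 or above in every landrace. Between the nearest means of the groups the gap was at least 2-fold in 33 rises and 28 falls. Mushito and Palomero were themselves at least 2-fold apart in 11 of the rises and 6 of the falls, beside 10.3% of all tested genes. Palomero was the higher of them in 23 of the 36 rises and 14 of the 35 falls. No share over all genes stands beside these counts. The nearest other landrace varied: Reventador was closest to the pair in 9 rises and Gordo in 10 falls, the most in each direction.

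The most abundant gene among the 71, ranked 86 of all genes and picked here for that abundance, was lower in the pair. It had 12780, 23190 and 35330 normalized counts at the lowest, median and highest in the pair, against 41610, 59520 and 89940 in the others. No library of the pair reached the lowest of the other 24. The log2 difference was -1.38 (SE 0.16, limma adjusted p = 0.0134). At the other end, the smallest change that passed was a fall of 0.38, from groups of library values that did overlap, with 8016, 8906 and 11030 in the pair and 10470, 11540 and 14320 in the others (adjusted p = 0.0495).

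A few genes were present in one group and at the floor in the other, where the floor is 3 recovered reads in a library. At the floor in all 8 libraries of the pair and above it in all 24 others were 2 genes, and the reverse held for 2. Zm00001eb291010 had 0 reads in each library of the pair and 4.121, 88.78 and 280.0 normalized counts at the lowest, median and highest in the others. Its mean in the pair was at least 30.4-fold lower, against a floor of 3 reads per library. Zm00001eb429070 had 9.453, 45.42 and 288.5 in the pair and at most 3 reads in any of the other libraries, at least 24.4-fold higher in the pair. Both genes were picked for this pattern and passed the filter on low values through the group in which their reads were counted, so no p is given for them. They are still counted among the 71. Floors cover counting error only.

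**Figure D3:**
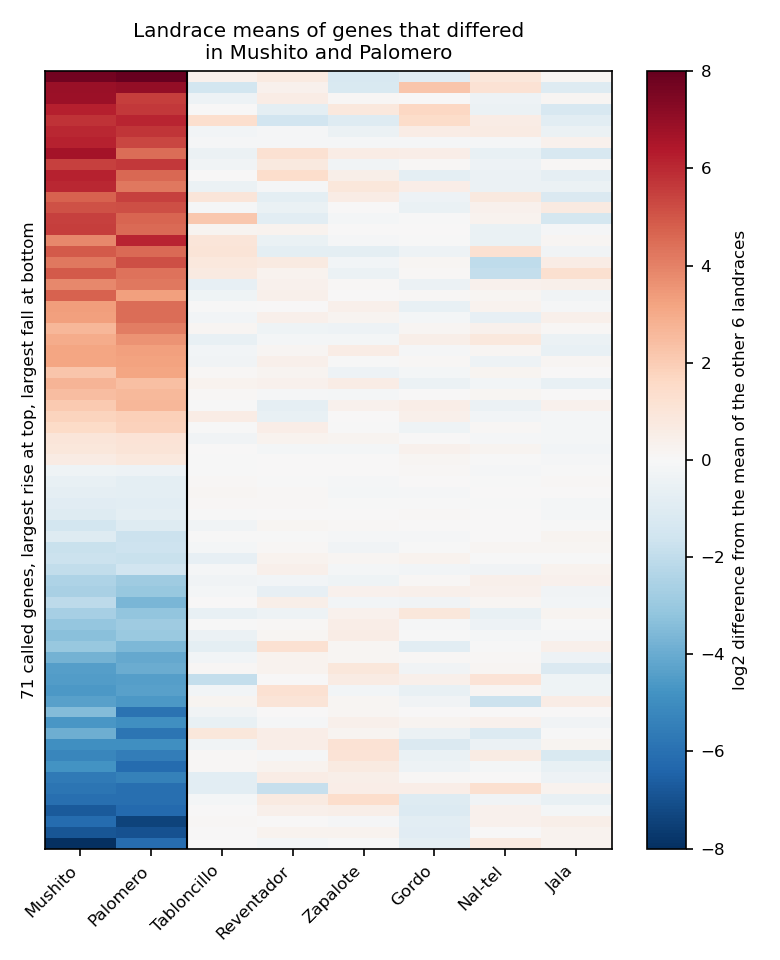
Log2 difference of each landrace mean from the mean of the other 6 landraces, for the 71 genes called over both leaves, ordered from the largest rise (8.79) at the top to the largest fall (-7.02) at the bottom. Mushito and Palomero, left of the line, share the sign in every gene, which the choice of genes fixes; the columns to the right show how far the other 6 scatter.

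The leaves were then tested separately, since each has its own libraries. In the fifth leaf 33 genes differed (0.126%), with 11 higher (0.0421%) and 22 lower in the pair (0.0841%). In the ninth leaf 31 genes differed (0.119%), with 10 higher (0.0382%) and 21 lower (0.0803%). At an unadjusted p under 0.05 there were 2357 (9.01%) and 1433 genes (5.48%). In the fifth leaf all 4 libraries of the pair lay beyond the 12 others in 10 of the 11 rises and 18 of the 22 falls, and in the ninth in all 10 rises and all 21 falls. Over all tested genes, 246 lay above (0.941%) and 143 below (0.547%) in the fifth leaf, 1.49% together, and in the ninth 234 above (0.895%) and 133 below (0.508%), 1.4% together. Falls outnumbered rises in both leaves at a pseudocount of 1, but rises made up 66.7% of the fifth leaf calls and 68.4% of the ninth leaf calls with 10, against 33.3% and 32.3%, and 78.0% and 81.0% with no filter. With robust eBayes the fifth leaf had 6 rises and 22 falls. The rises of the fifth leaf were 5 without replicate 2 of Reventador, of Mushito or of Gordo or replicate 1 of Nal-tel, and the falls were 14 without replicate 2 of Gordo. The rises of the ninth leaf were 5 without replicate 2 of Reventador and 6 without replicate 2 of Gordo or replicate 1 of Tabloncillo. Leaving out any 1 of the 8 landraces lowered the fifth leaf count to between 6 (Palomero) and 20 (Tabloncillo or Gordo), and the second Gordo library of that leaf to 19. The ninth leaf count was 19 without Tabloncillo, 14 without Zapalote, 8 without Palomero and 12 without Jala.

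Genes called in 1 leaf had the same sign in the other. Of the 33 genes of the fifth leaf, all 33 had the same sign in the ninth leaf, 29 had an unadjusted p under 0.05 there and 14 were called. Of the 31 genes of the ninth leaf, all 31 kept their sign in the fifth leaf, 31 had an unadjusted p under 0.05 and 14 were called. No share of equal signs over all tested genes stands beside these counts, so they describe the called genes only. The median absolute log2 difference of the fifth leaf genes was 4.63 in their own leaf and 4.28 in the ninth, and that of the ninth leaf genes was 5.71 in their own leaf and 4.91 in the fifth. The 14 genes called in each leaf were all among the 71, and 31 of the 71 were called in neither leaf alone. The libraries of the leaves are separate but the landraces are the same, so this repeats the state of the landraces and not the choice of landraces.

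**Figure D4:**
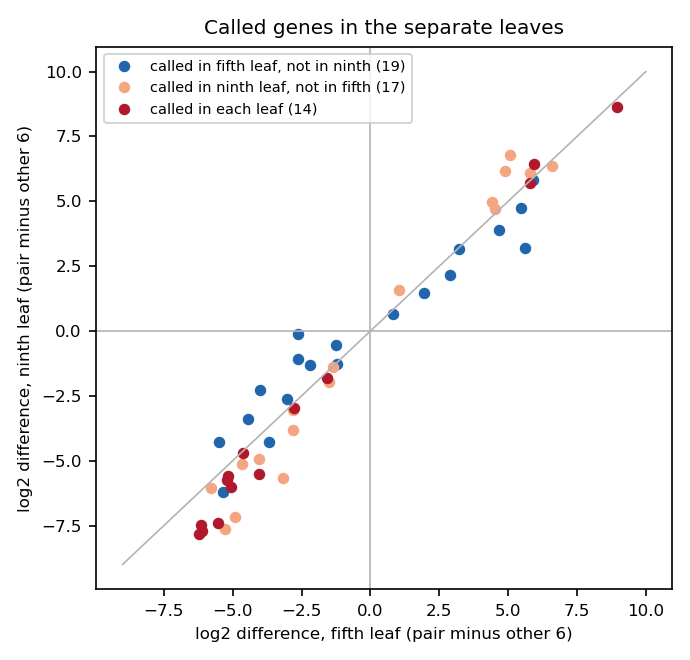
Log2 difference of the pair minus the other 6 landraces in the fifth leaf (x axis) and the ninth leaf (y axis) for the 50 genes called in either leaf, coloured by the leaf in which they were called. The grey diagonal marks equal differences; every gene lies in a quadrant of equal sign, and 14 were called in each leaf.

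Zm00001eb004080 had the largest rise in each leaf, with a log2 difference of 8.94 (SE 1.15, limma adjusted p = 0.032) in the fifth and 8.63 (SE 0.82, adjusted p = 0.00538) in the ninth. In the fifth leaf the call of this gene was lost in 11 of 34 alternatives, without either landrace of the pair among them. Among the other rises of the fifth leaf with a mean of at least 100 and no overlap between libraries, Zm00001eb339560 was the largest. It stood at 458.5 and 801.6 in Mushito and 943.6 and 764.7 in Palomero, against 5.457, 38.0 and 83.52 at the lowest, median and highest in the 12 other libraries. The log2 difference was 4.67 (SE 0.68, limma adjusted p = 0.0431). The call was lost in 20 of 35 alternatives.

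Under the same conditions the next rise of the ninth leaf was Zm00001eb158140, at 742.9 and 1059 in Mushito and 845.4 and 412.3 in Palomero, against 0, 3.557 and 330.0 in the others. The 330.0 was a single library of Nal-tel whose replicate was at 0. The log2 difference was 6.80 (SE 0.95, limma adjusted p = 0.0442). The call was lost in 17 of 34 alternatives, and edgeR gave an adjusted p of 0.632.

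Among the falls, Zm00001eb282490 led in both leaves. Its log2 difference was -6.21 (SE 0.62, limma adjusted p = 0.00799) in the fifth leaf and -7.84 (SE 0.54, adjusted p = 0.000695) in the ninth. In the fifth leaf, edgeR (adjusted p = 0.0754) and the fit without Mushito (0.0618) lost it. The next fall of the fifth leaf was Zm00001eb059880, at 3.781 and 4.121 in Mushito and 14.33 and 0 in Palomero, against 123.7, 350.9 and 560.3 in the 12 others (log2 difference -6.14, SE 0.47, limma adjusted p = 0.00267). The next fall of the ninth leaf was Zm00001eb059890, at 2.412 and 0 in Mushito and 0 in both libraries of Palomero, against 102.9, 310.9 and 457.0 (log2 difference -7.72, SE 0.45, limma adjusted p = 0.000296). The falls named here met the filter on low values through the other landraces, so the filter was not independent of their differences. Zm00001eb059880 and Zm00001eb059890 follow each other in the order of identifiers. In all, 4 pairs of called genes were direct neighbours in that order, 8 of the 71 genes, and the members of each pair moved in the same direction. No share over all tested genes stands beside these counts of neighbours. Whether such neighbours share sequence or reads was not tested.

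Whether the leaves differ in another way in the pair than elsewhere was tested on each landrace's leaf difference, the ninth minus the fifth. By limma 0 genes passed (0.0%), with 1391 at an unadjusted p under 0.05 (5.32%), and edgeR on the recovered reads likewise gave 0, with 1263 at an unadjusted p under 0.05. Without Mushito 2 genes passed. The genes with the smallest p-values did not pass, each at an adjusted p of 0.787. Among them, Zm00001eb092230 was at 1403 and 1608 in the ninth leaf of Mushito, against 3176 and 3621 in the fifth, and at 1825 and 1821 in the ninth leaf of Palomero, against 3315 and 3232 in the fifth. Its leaf difference was -1.17 in Mushito and -0.84 in Palomero and ran from -0.11 to 0.68 in the other 6 landraces (-1.32 between the groups, SE 0.21). Zm00001eb376890 had leaf differences of -0.99 in Mushito and -1.73 in Palomero, against -0.44 to 0.93 in the others (-1.83, SE 0.35).

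In the opposite direction, Zm00001eb216870 was at 10580 and 16980 in the ninth leaf of Mushito, against 9160 and 5120 in the fifth, and at 14780 and 10950 in the ninth leaf of Palomero, against 5991 and 5017 in the fifth. Its leaf difference was 0.97 in Mushito and 1.21 in Palomero, against -0.61 to 0.25 in the others (1.22 between the groups, SE 0.21). Zm00001eb144960 had leaf differences of 2.43 in Mushito and 2.13 in Palomero, against -0.44 to 0.93 in the others (1.86, SE 0.33).

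The genes with small p-values were not spread evenly over the identifiers. In order of identifier, the tested genes were divided into 523 windows of 50 genes, and the last 6 genes, which filled no window, were left out. Of those last genes, 66.7% had an unadjusted p under 0.05 in the test over both leaves. The median window held 6.0% of genes at an unadjusted p under 0.05 for the pair against the other 6 over both leaves, beside 7.83% over all genes. A share of at least 3 times that of all genes was reached in 9 windows, a cutoff chosen after the shares were seen, and 6 of these followed each other. These 6, from Zm00001eb190210 to Zm00001eb194800, held 26%, 38%, 36%, 32%, 26% and 26%, and the 38% was the highest of the 523 windows. The next windows on one side held 12% and 10% and on the other 10% and 8%. The other 3 windows above the cutoff had no neighbour above it, at 24%, 26% and 30%. The 26% and the 30% belonged to a second stretch of mostly raised shares, in which 12 consecutive windows held 22%, 26%, 10%, 22%, 14%, 16%, 12%, 8%, 30%, 20%, 14% and 22%. The 24% lay in consecutive windows that held 14%, 24%, 10%, 18%, 18%, 10% and 14%.

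**Figure D5:**
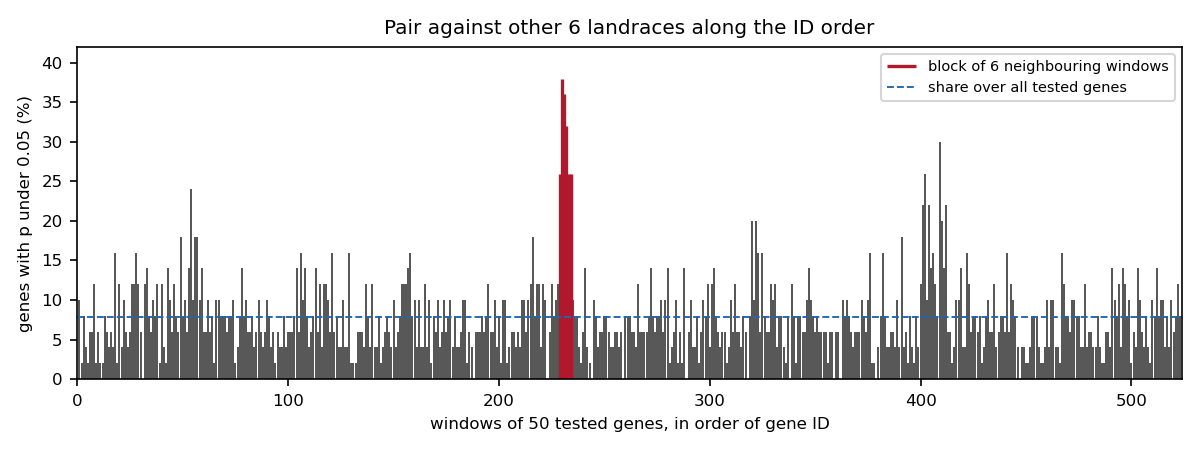
Percent of genes with an unadjusted limma p under 0.05 for Mushito and Palomero against the other 6 landraces, in 523 consecutive windows of 50 tested genes in order of identifier (x axis, window number). The dashed line marks the 7.83% over all tested genes, and the block of 6 neighbouring windows in red reaches 26% to 38%.

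The block held 405 genes of the table, of which 300 were tested. Of these 92 (30.7%) had an unadjusted p under 0.05, 35 higher and 57 lower in the pair. The adjusted threshold was passed by 10 (3.33%, beside 0.271% over all genes), 3 higher and 7 lower. Since the block was picked by these values, the counts describe it and carry no test. The 10 calls became 6 without the fifth leaf replicate 2 of Mushito, 6 without Gordo, 4 without Tabloncillo, 3 without Zapalote, 2 without Nal-tel or Jala and 1 without Mushito or Palomero. They were 5 among genes with a mean of at least 50, 42 with DESeq2, 40 with landrace as a random block and 112 against the spread between replicates. Its genes were of ordinary abundance, with a median mean count of 845.4 beside 844.4 over all tested genes. Their median absolute log2 difference was 0.267 beside 0.154, and 164 of the 300 were lower in the pair. Most differences in the block were thus small, and they went in both directions.

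The distances over the genes of the block restate the choice of the block, which was picked for small p-values of the pair against the other 6, and are given as a description. Mushito and Palomero lay 0.61 log2 units apart, the 12 distances to the other 6 ran from 1.067 to 1.301, and the 15 distances among the other 6 from 0.662 to 1.011. Landrace means of the pair lay outside those of the other 6 in 104 of the 300 genes (34.7%, beside 10.8% over all). The share at an unadjusted p under 0.05 was 27.7% in the fifth leaf (9.0% over all) and 22.3% in the ninth (5.5%). Without Mushito it was 20.7% over both leaves, beside 5.9% over all genes, and without Palomero 18.3%, beside 3.7%.

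Among the 10 called genes of the block the absolute log2 differences ran from 0.38 to 4.44 with a median of 1.72. The gene with the smallest adjusted p had 464.6, 604.4 and 707.7 normalized counts at the lowest, median and highest in the pair, against 1417, 1910 and 2565 in the others. All libraries of the pair were below all others. Its log2 difference was -1.70 over both leaves (SE 0.13, limma adjusted p = 0.00193), with -1.58 for the fifth and -1.82 for the ninth leaf. Of the 3 called genes of the block that were higher in the pair, the most abundant had 1194, 1421 and 1729 normalized counts, against 402.0, 694.1 and 908.0, again without overlap (log2 difference 1.04, SE 0.16, limma adjusted p = 0.0456). No table used here places these identifiers on chromosomes, so whether the block lies in an inversion was not tested.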

How the data were processed

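Poly(A) RNA libraries were made with a directional kit from column-extracted RNA, per the labels' protocols. The submitters' processing notes name STAR, featureCounts and DESeq2, without version or role; the genome build and annotation are not given in the sources used here. The authors deposited 1 table of normalized counts, a signal in which each library's reads are divided by a constant. In each of the 32 libraries 100% of values were whole multiples of 1 step (tolerance 0.01 of a step), which gave back whole reads; of recovered values from 1 to 20, 76.7% to 87.0% were even, so reads of a gene are not independent molecules. No column was without a sample (0).

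The filter for testing was a mean of 10 (26156 of 39756 genes; 3403 were 0 throughout). Replicates were averaged on the log2(normalized count + 1) scale within a leaf, then over the leaves, and the 2 landrace means were compared with the other 6 by limma 3.58.1 in R 4.3.3 (eBayes with trend, Benjamini-Hochberg over all tested genes, threshold 0.05). A fold change on this scale is understated for low genes. Named genes are the 2 largest rises and 2 largest falls among called genes averaging 100 or more with no overlap between libraries, the 2 smallest p-values in each direction for the leaf difference, and the gene with the highest mean on each side for presence and absence. Other genes described were picked after their values were seen.

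Alternatives were pseudocounts of 0.1 and 10, other filters, quantile normalization, centring, robust eBayes, spread between replicates with and without a replicate block, landrace as a random block, each library or landrace left out, and edgeR 4.0.16 and DESeq2 1.42.0 on reads summed per landrace. Python 3.11.15 with numpy 2.4.6, pandas 2.3.3, scipy 1.17.1 and matplotlib 3.10.9 did the rest. Only the test over both leaves was run on simulated reads, by limma, edgeR and DESeq2, with a fixed spread and no leaf effect. The simulated reads were drawn independently, while those here were mostly even, so the outcome is not used as support. Planned gene lists were not run, since 0 identifiers matched names. The groups and lists were chosen with earlier results of these data known.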

Additional observations from a re-analysis of the deposited data

Results flagged for a closer look

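Among the 16 values of named genes, the mean of 1 landrace lay far from those of the other 5 outside the pair in 1 case, Zm00001eb059890 in Gordo. Over both leaves its log2 mean there was 7.20, against 8.09 to 8.38 in Tabloncillo, Reventador, Zapalote, Nal-tel and Jala, a gap of 0.751 of the range, above Dixon's critical value of 0.625 for 6 values. Chance alone passes that value in about 1 in 20 groups. Gordo still lay above Mushito (1.23) and Palomero (1.10).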

How the results depend on the processing

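With few units the number of calls depended on the spread it was set against. With spread between replicates in place of landraces there were 3993 over both leaves (all 71 among them), 2825 in the fifth, 1359 in the ninth and 2 for the leaf difference. Replicate numbers do not pair the libraries: the correlation of their deviations across leaves ran from -0.175 to 0.112, over 0.1 in 1 of 8 landraces. With the replicate block the counts were 3997, 2846, 1337 and 2, and the share of the block of identifiers at an unadjusted p under 0.05 was 54.7% in both of these fits. With landrace as a random block 488 genes were called over both leaves. Over both leaves, the fifth alone and the ninth alone, DESeq2 called 510, 470 and 310 and edgeR 51, 9 and 16. A pseudocount of 10 gave 51 for the fifth and 57 for the ninth leaf, no filter 121, 118 and 79, and a mean of at least 50 gave 34, 18 and 18.

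Leaving out 1 library or landrace gave 8 to 79 calls over both leaves, 6 to 40 in the fifth, 8 to 34 in the ninth and 0 to 2 for the leaf difference, and a share in the block of 18.3% to 33.3%. Counts over both leaves fell to 26 without Mushito, 8 without Palomero, 38 without Zapalote and 39 without Jala. In the fifth leaf they fell to 20 without Tabloncillo, 17 without Reventador, 12 without Mushito, 11 without Zapalote, 20 without Gordo, 13 without Nal-tel, 6 without Palomero, 12 without Jala and 19 without Gordo's replicate 2. In the ninth leaf they fell to 19 without Tabloncillo, 14 without Zapalote, 8 without Palomero and 12 without Jala. The leaf difference had 2 without Mushito.

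Of 486 values of named genes 428 kept their call, 58 lost it and 0 reversed; 2 DESeq2 values had no adjusted p. All 200 of the leaf difference stayed above the threshold. Other settings kept the total counts of calls within 1.5 times. Similar totals did not always mean the same genes. Over both leaves, 40 of the 51 edgeR calls were among the 71, as were 60 of 90 with a pseudocount of 10. Without Gordo it was 52 of 72, with centring 70 of 71 and with robust eBayes 65 of 65. The calls by direction within a leaf and those in the block moved further in the fits given beside them. Mushito and Palomero stayed the closest pair. The share in the block under alternatives was computed after the block was seen. The cause of these shifts was not tested, beyond fewer units or genes in a fit.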

Other observations

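Among the 36 genes higher in the pair over both leaves, 1 library of the other landraces had the highest mean on the log2 scale. Averaged over these genes, the log2 value was between 7.92 and 8.54 in the 8 libraries of the pair, 5.23 in the fifth leaf replicate 1 of Reventador, and 3.48 to 4.48 in the other 23. That library held the highest value of the 24 in 7 of the 36 genes, and the next, the fifth leaf replicate 1 of Nal-tel, in 5. Its summed normalized count over these genes, 14377, was not the highest: the ninth leaf replicate 2 of Zapalote held 15998, the fifth leaf replicate 2 of Tabloncillo 15057, the ninth leaf replicate 2 of Gordo 14824 and the fifth leaf replicate 1 of Gordo 14553. In Zm00001eb004080 the Reventador library held 133.1 against 4.365 in its replicate, in Zm00001eb393410 52.53 against 2.183, and in Zm00001eb158140 57.2 against 0. Without the Reventador library 67 genes were called over both leaves by limma, of which 63 were among the 71, with 34 higher and 33 lower. The comparison was made after the values of the named genes were seen, and no explanation was tested.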
